A study of Mus musculus with 6 samples.

Results

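The bile salt and sterol transporters of the hepatocyte, together with the nuclear receptor Fxr and its partner Shp, were followed in mouse liver after injection of a lentiviral vector. The set comprised 10 genes chosen by name (Slc10a1, Slco1b2, Abcb11, Abcb4, Abcc2, Abcc3, Abcg5, Abcg8, Nr1h4 and Nr0b2), and all 10 were among the 8390 genes of the table deposited by the authors. RNA was sequenced from 6 whole-liver samples of C57BL/6 mice, an inbred strain. A lentiviral vector, a replication-deficient particle that carries a gene into cells, was injected into a vein at 3e8 transducing units, and the 3 LV samples were taken 4 h later. The other 3 samples came from untreated mice, and no mock-injected group is among the samples, so effects of the vector and of the injection cannot be told apart. The age of the mice and the cargo of the vector were not given in the sources used here. Only the sample titles mark the replicates. The samples are called livers here, though the labels do not say that each came from a separate animal, and p-values therefore measure the spread between these samples, which may be technical.

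Bile salts circulate between liver and intestine. Hepatocytes take them up from blood at the basolateral membrane and pump them across the canalicular membrane into bile, where phospholipid and cholesterol are added by separate transporters. Fxr, encoded by Nr1h4, is the nuclear receptor that senses bile acids. It induces the export pump Abcb11 and the corepressor Shp, encoded by Nr0b2, and Shp in turn restrains bile acid synthesis and uptake. The sterol exporters Abcg5 and Abcg8 are known targets of the oxysterol receptor LXR. In rodents, inflammatory signals such as endotoxin are known to lower the messages of several of these transporters.

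The start regions of 3 loci are shown because they belong to the pair of genes with the lowest fold changes and to the classical Fxr target genes. Sequences are from RefSeq on build GRCm38.p6, and 9 of the 10 genes had a start window in that table. Abcg5 and Abcg8 are transcribed away from each other. Abcg8 had 2 start windows, and the start with the higher coordinate is used here. From that start, only 109 bases (chr17:84683012-84683120, plus strand) separate the first transcribed bases of Abcg5 and Abcg8. Capitals mark the GATA-type motif AGATAA, which appears here as its reverse complement. The 100 bases before the start of Nr0b2 (chr4:133553276-133553375, plus strand) have the TATA motif TATAAA in capitals. The 100 bases before the start of Abcb11 (chr2:69342617-69342716, minus strand) have the nuclear receptor core motif AGGTCA in capitals, again as its reverse complement.
Abcg5-Abcg8: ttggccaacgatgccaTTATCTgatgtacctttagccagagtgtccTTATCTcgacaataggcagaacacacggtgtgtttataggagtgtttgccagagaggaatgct
Nr0b2: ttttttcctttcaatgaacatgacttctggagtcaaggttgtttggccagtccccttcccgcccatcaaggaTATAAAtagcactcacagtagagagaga
Abcb11: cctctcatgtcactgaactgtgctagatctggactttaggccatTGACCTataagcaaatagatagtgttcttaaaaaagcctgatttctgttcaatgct

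Motifs were searched on both strands in windows from 250 bases before to 50 bases after each start. The core motif AGGTCA was in the windows of 5 of the genes (Abcb11, Slco1b2, Nr1h4, Slc10a1 and Abcc2) and in 16.3% of all 32851 windows of the table. AGATAA was in the windows of Abcg5, Abcg8 and Nr1h4 and in 11.2% of all windows, and those of Abcg5 and Abcg8 overlap, so their matches are the same letters. TATAAA was found in 5 of the 11 windows of these genes and in 13.6% of all, and the matches of Abcg5 and Abcg8 are again the same letters. The Fxr consensus AGGTCANTGACCT, an inverted repeat of the core motif, had 0 matches in these windows and 0.00913% in all. Only exact letters were counted. The bases printed for Abcb11 hold aggccatTGACCT, which differs from this consensus only by a C in place of the T of its left part. The GAAANNGAAA letters of an interferon-stimulated response element had 0 matches here and 3.44% in all, and the NF-kB letters GGGANTTTCC had 0 here and 0.411% in all. HNF4 (CAAAGTCCA) and the LXR direct repeat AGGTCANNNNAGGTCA also had 0 matches in these windows, against 0.475% and 0.0152% of all windows. A match is a string of letters and shows no binding, and a missing match says only that these letters are not in the window.

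Values are quoted in the deposited unit, a rounded whole-number score with library totals from 497295 to 526009. From the values, the score appears to be scaled for library size and transcript length, so levels of different genes are set side by side on that reading. These sums are not read totals, so depth is unknown. LV replicate 3 and untreated replicate 2 stand apart from the other libraries by their male-biased liver genes: Elovl3 was 169 and 159 in them and at most 4 in the others. The hepatocyte origin of the tissue was plain, with all 15 listed hepatocyte markers present and Alb, albumin, at 50232 ± 7389 (SD, n = 3) in LV livers and at 61581 ± 11042 (SD, n = 3) in untreated ones.

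In untreated liver the uptake carrier Slc10a1 had the highest level of the set, 566 ± 37.2 (SD, n = 3), and ranked 105th among all listed genes. Slco1b2 and then Abcb11 followed, each below its neighbour with no overlap of the 3 untreated values. Abcc2, Nr1h4, Abcg5, Abcc3, Abcg8 and Abcb4 came next in the order of untreated means, and each of these overlapped with its neighbour, so their order is not settled by these libraries. Nr0b2 was lowest at 32.7 ± 11.0 (SD, n = 3), apart from Abcb4, and still above 78.4% of listed genes. The first 3 and the last kept their rank in LV livers. The spread among untreated livers was smallest for Slc10a1 (coefficient of variation 6.58%) and widest for Abcg5 (39.1%), and among LV livers it was smallest for Abcb11 (7.25%) and widest for Nr0b2 (41.7%).

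**Figure D1:**
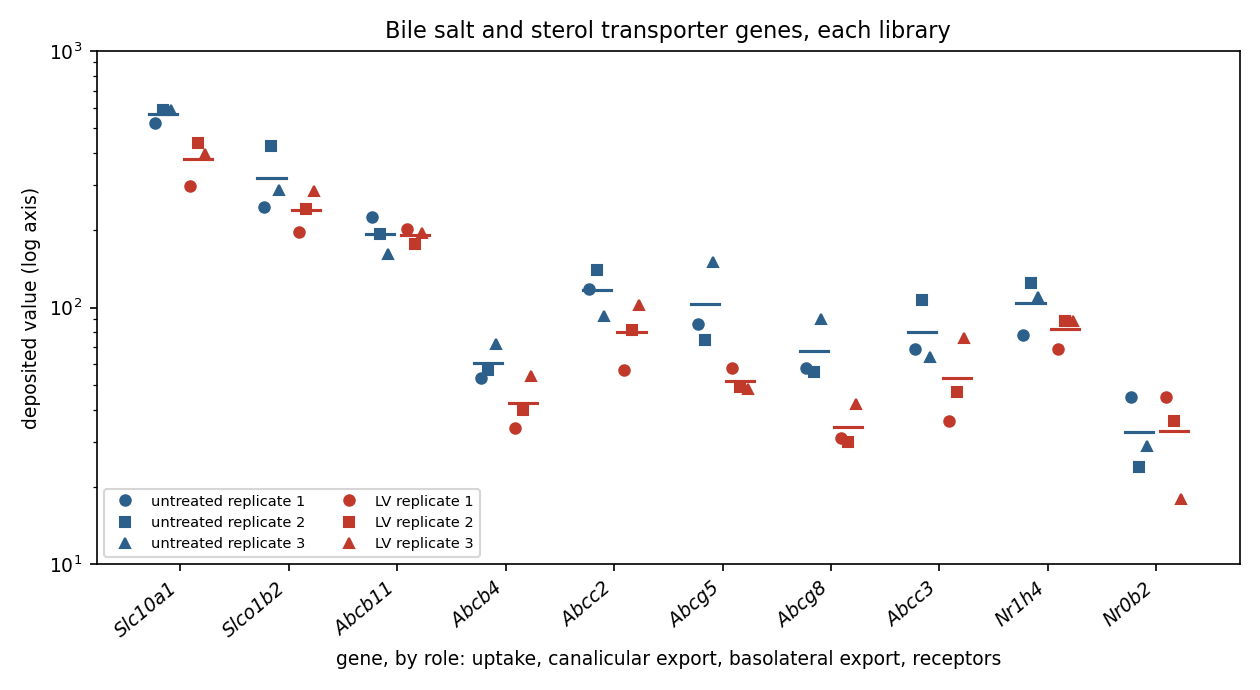
Deposited value (log axis) of each of the 10 genes in the 3 untreated (blue) and 3 LV (red) livers, with a symbol for each replicate and a line at the group mean. The LV points of Slc10a1, Abcg5 and Abcg8 all lie below the untreated points, whereas the groups of the other 7 genes overlap.

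None of the 10 genes passed the test between LV and untreated livers, and all 10 fold changes were negative or close to 0. The lowest were those of the sterol exporters Abcg5 and Abcg8, whose LV means were 49.8% and 50.5% of the untreated means, followed by Abcc3 and the uptake carrier Slc10a1. The bile salt pump Abcb11 and the corepressor Nr0b2 had LV means of 99.0% and 101% of the untreated means. The test was limma on log2(value + 1), fitted over the 8386 genes that passed the filter on low values, which all 10 did, two-sided, with Benjamini-Hochberg adjustment, and a gene was called at an adjusted p under 0.05. In that test 3.76% of all genes were called higher and 0.87% lower, against 0 and 0 of the 10. At an unadjusted p under 0.05, 3 of the 10 were lower and 0 higher (10.3% and 9.21% of all genes). In the same 3 genes every LV value lay below every untreated value, as it did for 11.0% of all genes, and in 0 of the 10 did every LV value lie above (8.65% of all genes). The median log2 fold change of the 10 was -0.53, beside -0.07 for all tested genes, of which 58.1% were negative. The genes were chosen with earlier results known, so these counts are a description. In whole liver, fewer cells of a type and less RNA per cell cannot be told apart.

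**Figure D2:**
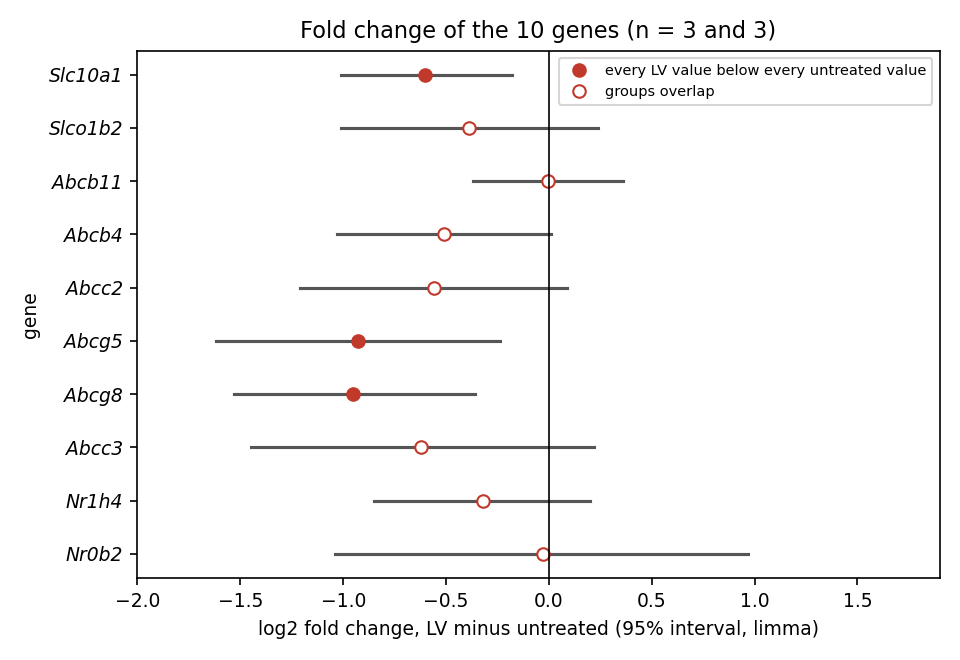
Log2 fold change (LV minus untreated) of each gene with its 95% interval from limma, 3 livers a group. The intervals of Slc10a1, Abcg5 and Abcg8 (filled, groups apart) stay below 0, and that of Nr0b2 is the widest, from -1.04 to 0.97.

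Uptake carriers differed in how clearly the groups separated. Slc10a1 encodes Ntcp, the sodium-dependent carrier that brings conjugated bile salts into the hepatocyte. It had values of 298, 439 and 396 in LV replicates 1, 2 and 3 and of 523, 588 and 587 in untreated replicates 1, 2 and 3. All LV livers were below all untreated ones, with LV replicate 1 lowest. The log2 fold change was -0.60 ± 0.17 (SE), with a 95% interval from -1.01 to -0.18, and did not pass in limma (adjusted p = 0.129). Slco1b2 encodes the sodium-independent organic anion carrier of the same membrane. It had 196, 241 and 285 in LV livers and 246, 427 and 288 in untreated ones. Here untreated replicate 2 was well above all others, and the remaining values of the groups overlapped (log2 fold change -0.39 ± 0.25 SE, adjusted p = 0.444 in limma).

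The canalicular pumps for bile salts, phospholipid and organic anions gave unequal values. Abcb11, the bile salt export pump, had 203, 176 and 195 in LV livers against 226, 193 and 161 without treatment. All LV values lay within the untreated range, and the log2 fold change was -0.0039 ± 0.15 (SE), with a 95% interval from -0.37 to 0.36 (limma adjusted p = 1.0). Its sign turned under other scalings, to 0.01 with equal totals and 0.05 with median-of-ratios scaling. Reads of Abcb11 could include some from the antisense gene Gm13613, which shares 2.64% of its exon bases in GENCODE, and the sources used here do not say whether counting used strand.

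Abcb4 encodes the floppase that moves phosphatidylcholine into bile. It had 34, 40 and 54 in LV livers and 53, 57 and 72 in untreated ones, and only LV replicate 3 reached into the untreated range (log2 fold change -0.51 ± 0.21 SE, adjusted p = 0.259 in limma). Abcc2, the exporter of bilirubin glucuronides and other conjugates, had 57, 82 and 102 in LV livers and 118, 140 and 93 in untreated ones. Again LV replicate 3 alone reached into the untreated range, above untreated replicate 3 (log2 fold change -0.56 ± 0.26 SE, adjusted p = 0.302 in limma).

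Abcg5 and Abcg8 form an obligate heterodimer that secretes cholesterol and plant sterols into bile, and neither works alone. Abcg5 had 58, 49 and 48 in LV livers and 86, 75 and 150 in untreated ones. Abcg8 had 31, 30 and 42 in LV livers and 58, 56 and 90 in untreated ones. For both genes all LV livers lay below all untreated ones, and untreated replicate 3 was the highest of all. The log2 fold changes were -0.93 ± 0.28 (SE; 95% interval -1.62 to -0.24) and -0.95 ± 0.23 (SE; -1.53 to -0.36), and neither passed in limma (adjusted p = 0.149 and 0.1). Without untreated replicate 3 they were -0.63 and -0.73 (limma adjusted p = 0.125 and 0.173).

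The balance within the sterol pair was measured as the log2 ratio of Abcg5 to Abcg8 in each library. It was 0.88, 0.69 and 0.19 in LV livers and 0.56, 0.42 and 0.73 in untreated ones, so the groups overlapped (means 0.59 ± 0.36 and 0.57 ± 0.16, SD). The difference of 0.02 had p = 1.0 in a two-sided exact permutation test, in which 3 against 3 livers cannot give less than 0.1. The exons of the 2 genes share 82 bases on opposite strands in GENCODE, 3.02% of Abcg5 and 2.19% of Abcg8. The gap shown between their starts therefore does not hold for every annotated transcript, and a small part of their reads cannot be told apart without strand.

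Abcc3 exports conjugates back to blood across the basolateral membrane and is known to be raised when bile flow is blocked. It had 36, 47 and 76 in LV livers and 69, 107 and 64 in untreated ones. LV replicates 1 and 2 were below all untreated livers and LV replicate 3 was above 2 of them. The log2 fold change was -0.62 ± 0.33 (SE), with an adjusted p = 0.367 in limma. The log2 ratio of Abcc3 to its canalicular relative Abcc2 was -0.62 ± 0.19 in LV and -0.56 ± 0.19 in untreated livers (SD, n = 3; exact permutation p = 0.7). The log2 ratio of the export pump Abcb11 to the carrier Slc10a1 was -0.96 ± 0.38 in LV and -1.56 ± 0.33 in untreated livers, a difference of 0.60 (SD, n = 3; exact permutation p = 0.2). Adjusted over the 3 ratios, the p-values were 1.0, 0.6 and 1.0 for Abcg5 to Abcg8, Abcb11 to Slc10a1 and Abcc3 to Abcc2.

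The receptor and its corepressor target did not separate the groups. Nr1h4, which encodes Fxr, had 69, 89 and 89 in LV livers and 78, 125 and 110 in untreated ones. Only untreated replicate 1 lay within the LV range (log2 fold change -0.32 ± 0.21 SE, adjusted p = 0.451 in limma). Nr0b2, which encodes Shp, a receptor that lacks a DNA-binding domain, had 45, 36 and 18 in LV livers and 45, 24 and 29 in untreated ones. The highest value occurred in each group, and LV replicate 3 was lowest of all (log2 fold change -0.03 ± 0.40 SE, 95% interval -1.04 to 0.97, adjusted p = 1.0 in limma). The sign of Nr0b2 turned with median-of-ratios scaling (0.02), and without LV replicate 3 the value was 0.34.

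The LV libraries differed from each other in the extent to which the set was below the untreated mean. In LV replicate 1 the median log2 difference of the 10 genes from their untreated means was -0.78, and 8 genes lay below every untreated value (31.6% of all tested genes). The median was -0.43 in LV replicate 2, with 7 such genes (27.5% of all), and -0.19 in LV replicate 3, with 4 (24.5% of all). Untreated medians lay between -0.18 and 0.03, so LV replicate 3 was next to untreated replicate 1. The medians over all tested genes were between -0.07 and 0.07 in the 6 libraries. Acute-phase genes encode secreted proteins that hepatocytes make in inflammation. Of the 15 listed, 14 were highest in LV replicate 1 and lowest in LV replicate 3 among the LV libraries, the exception being Orm1, with 752, 925 and 1511 in LV replicates 1, 2 and 3. The values of the 15 summed to 35696, 27063 and 20559 in LV replicates 1, 2 and 3 and to between 9417 and 10517 in untreated livers. Of the 15, 8 were called higher in limma and 0 lower (3.76% and 0.87% of all tested genes). The part of the acute-phase genes in the transporter values was not tested.

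**Figure D3:**
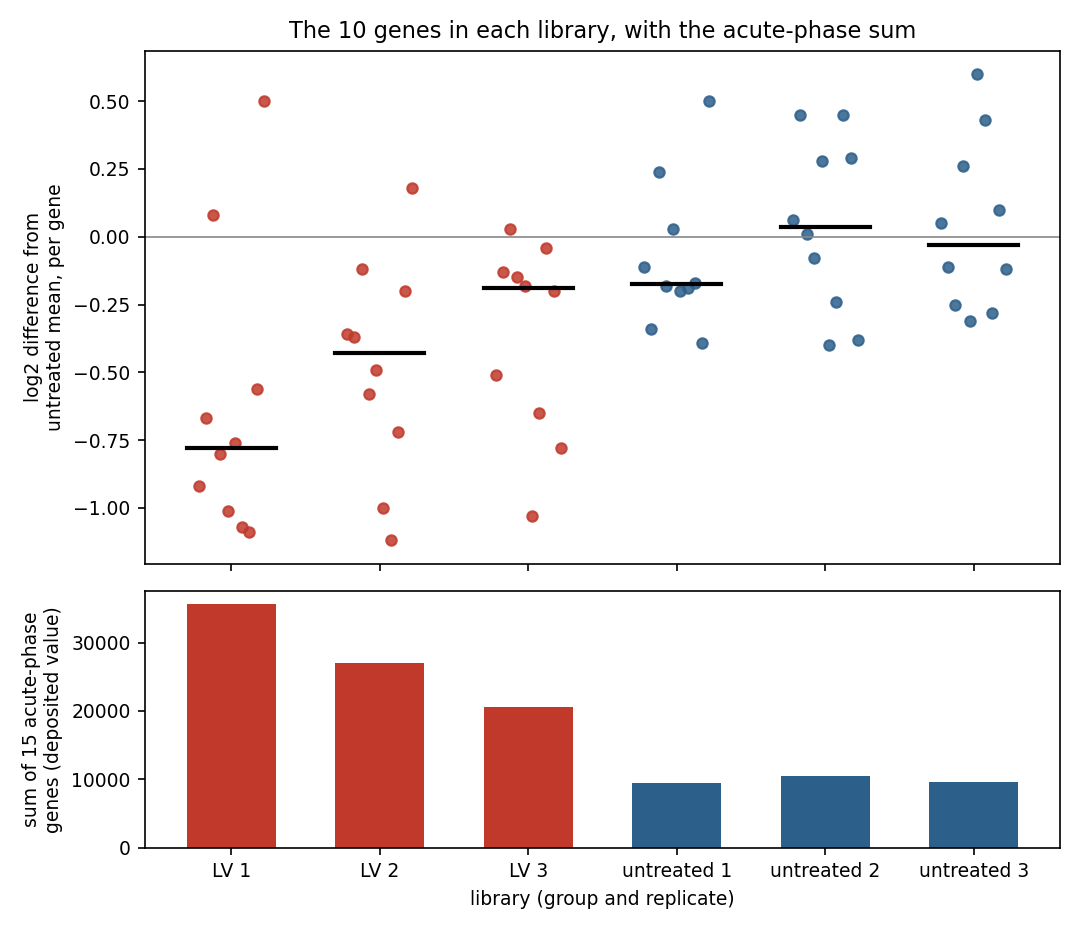
Upper panel, log2 difference of each of the 10 genes from its untreated mean in each library (points) with the median (bar); lower panel, summed deposited value of 15 acute-phase genes. LV replicate 1 has the lowest median (-0.78) and the highest acute-phase sum (35696), and LV replicate 3 the median nearest 0 (-0.19) and the lowest sum of the LV libraries (20559).

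The comparison was also read within the library sets defined by the male-biased genes. Among the 4 libraries with low Elovl3 (LV replicates 1 and 2, untreated replicates 1 and 3), both LV values were below both untreated values for 7 of the 10 genes, the exceptions being Abcb11, Nr1h4 and Nr0b2, and for 24.4% of all tested genes. In the remaining pair of libraries, LV replicate 3 was below untreated replicate 2 for 9 genes, the exception being Abcb11, and for 57.7% of all tested genes; this is 1 library against 1. Abcg5 differed by -1.08 on the log2 scale in the first set and -0.63 in the second, Abcg8 by -1.22 and -0.41, and Slc10a1 by -0.61 and -0.57. The gap between the sets was wide for Abcg8 and also for Abcb4 (-0.73 and -0.08), and Nr0b2 differed in sign (0.15 and -0.40). With the library set as a covariate, a setting added after seeing the data, none of the 10 passed. The smallest limma adjusted p was 0.0848, for Abcc3. In that fit 6 of the 10 were lower at an unadjusted p under 0.05, as were 1155 of all 8386 tested genes.

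Genes that make and conjugate bile acids gave no call in limma either. Of 19 listed, 17 were measured, of which 0 were higher and 0 lower, with a median log2 fold change of -0.33. Of the 17, 15 had a negative fold change (58.1% of all tested genes). At an unadjusted p under 0.05, 2 were lower and 0 higher (10.3% and 9.21% of all tested genes). The 2 lower ones were the racemase Amacr, at 51, 65 and 68 in LV livers and 83, 81 and 92 in untreated ones, and the steroid reductase Akr1d1 (log2 fold changes -0.48 and -0.33, limma adjusted p = 0.131 and 0.235). Cyp8b1, which sets the share of cholic acid, had 51, 66 and 191 in LV livers and 216, 227 and 117 in untreated ones. LV replicate 3 and untreated replicate 3 overlapped the other group (adjusted p = 0.365 in limma). Among the libraries with low Elovl3 both LV values of Cyp8b1 were below both untreated ones, as for 24.4% of all tested genes. Cyp27a1 of the alternative pathway was at 226 ± 72.7 and 291 ± 61.7 in LV and untreated livers (SD, n = 3). Cyp7a1, the first enzyme of the classical pathway, overlapped between the groups with a log2 fold change of -0.41 ± 0.50 (SE). Among the remaining members, the peroxisomal enzyme Hsd17b4 and the thioesterase Acot8, had log2 fold changes of -0.33 and -0.43 (limma adjusted p = 0.291 and 0.273).

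Other transporters and bile salt related genes of hepatocytes gave no call either. Of 21 listed, 16 were measured and 0 were called higher or lower in limma, with a median log2 fold change of -0.36. Of the 16, 14 were negative (58.1% of all tested genes). At an unadjusted p under 0.05, 4 were lower and 0 higher (10.3% and 9.21% of all tested genes). Slc47a1, a proton-coupled exporter of organic cations into bile, had 35, 38 and 48 in LV livers and 61, 69 and 61 in untreated ones, with no overlap (log2 fold change -0.66 ± 0.14 SE, adjusted p = 0.0711 in limma). Ephx1, the microsomal epoxide hydrolase, had 136, 142 and 174 in LV livers and 243, 237 and 212 in untreated ones (-0.62 ± 0.12 SE, adjusted p = 0.06). The copper exporter Atp7b and the anion exchanger Slc4a2 had log2 fold changes of -0.66 and -0.39 (adjusted p = 0.159 and 0.0931). Slco1a1, a male-biased organic anion carrier, had 12, 11 and 158 in LV livers and 75, 163 and 61 in untreated ones (adjusted p = 0.463 in limma). Its highest values were in LV replicate 3 and untreated replicate 2. Among the libraries with low Elovl3 both LV values were below both untreated ones, as for 24.4% of all tested genes. Slco1a4 of the same family was at 19.3 ± 9.07 and 21.7 ± 5.86 (SD, n = 3). Abcc4, Slc51a and Slc51b, basolateral exporters known as Fxr or stress targets, were not among the genes listed.

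**Figure D4:**
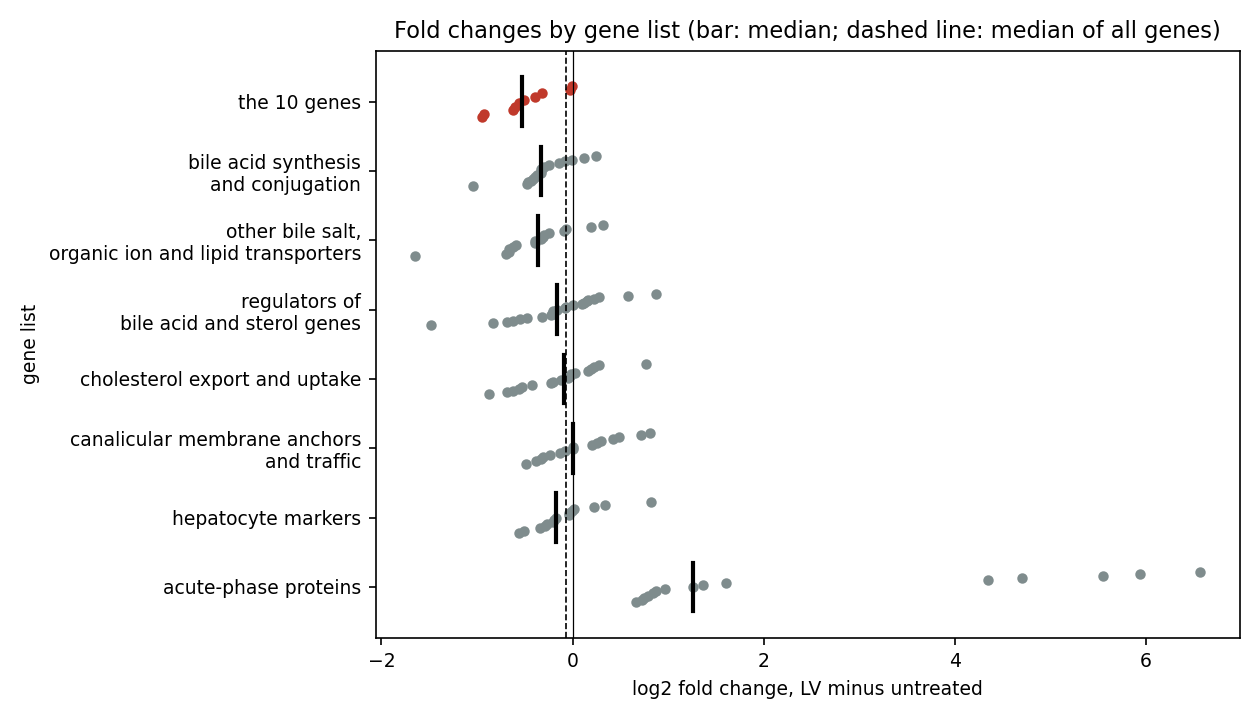
Log2 fold change (LV minus untreated) of each measured gene, by list, with the median of each list (bar) and of all tested genes (dashed line, -0.07). The 10 transporter and Fxr genes have a median of -0.53, bile acid synthesis -0.33, other transporters -0.36 and acute-phase genes 1.26.

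Regulators of these genes were mixed in direction. Of 24 listed, 23 were measured and 0 were called in limma, with a median log2 fold change of -0.16. There were 2 higher and 6 lower at an unadjusted p under 0.05 (9.21% and 10.3% of all tested genes). In 8 of the 23 every LV value lay below every untreated value (11.0% of all tested genes). In 2 of them every LV value lay above (8.65% of all tested genes). Nr1i3, which encodes the xenobiotic receptor Car, had the lowest fold change of this list, with 28, 67 and 76 in LV livers and 126, 154 and 168 in untreated ones (-1.48 ± 0.40 SE, adjusted p = 0.122). Nr1i2, the xenobiotic receptor Pxr, had 36, 31 and 33 in LV livers and 41, 45 and 65 in untreated ones (-0.55, adjusted p = 0.194). Klb, the co-receptor through which intestinal Fgf15 reaches hepatocytes, had 11, 13 and 14 in LV livers and 21, 21 and 18 in untreated ones (-0.62 ± 0.12 SE, adjusted p = 0.0553). Cebpa, a hepatocyte transcription factor, had 142 ± 17.2 and 199 ± 8.08 (SD, n = 3; adjusted p = 0.0796).

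Foxa2 and Hnf4a, factors of hepatocyte identity, had higher values in every LV liver than in every untreated one. The same held for 8.65% of all tested genes. Foxa2 had 30, 20 and 21 in LV livers and 12, 11 and 14 in untreated ones (log2 fold change 0.87 ± 0.18 SE, limma adjusted p = 0.0709). Hnf4a had 227, 218 and 216 against 189, 193 and 184 (0.22 ± 0.07 SE, adjusted p = 0.16). The partner receptor of Fxr and LXR, Rxra, was at 163 ± 28.6 and 151 ± 8.00, and Nr1h3, the liver form of LXR, at 57.0 ± 3.00 and 60.7 ± 7.51 in LV and untreated livers (SD, n = 3). Nr5a2, which Shp represses on bile acid genes, was at 23.0 ± 3.61 and 20.7 ± 3.21 (SD, n = 3). Fgf15 was not among the genes listed.

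Among genes of cholesterol export and uptake, 18 of 19 were measured and 0 were called in limma, with a median log2 fold change of -0.09. In this list 1 was higher and 3 were lower at an unadjusted p under 0.05 (9.21% and 10.3% of all tested genes). The higher one was Abca1, the exporter that loads nascent high-density lipoprotein and, like Abcg5 and Abcg8, a known LXR target. It had 58, 54 and 38 in LV livers and 30, 38 and 20 in untreated ones, with a shared value of 38 between the groups (log2 fold change 0.77 ± 0.28 SE, adjusted p = 0.218). Npc1, which releases cholesterol from lysosomes, had 15, 23 and 32 in LV livers and 35, 49 and 42 in untreated ones (-0.87 ± 0.29 SE, adjusted p = 0.191). The sterol carrier Stard4 and Mylip, a ubiquitin ligase for the LDL receptor, had fold changes of -0.62 and -0.53 on the log2 scale (adjusted p = 0.219 and 0.247).

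Proteins that anchor or route transporters at the canalicular membrane gave 0 calls in limma among 16 measured of 19 listed, with a median log2 fold change of 0.00. Here 4 were higher and 2 lower at an unadjusted p under 0.05 (9.21% and 10.3% of all tested genes). Pdzk1, a scaffold that binds several transporters, had 31, 34 and 30 in LV livers and 45, 35 and 45 in untreated ones (-0.38, adjusted p = 0.191). The motor Myo5b, which carries vesicles to the canaliculus, had 11, 9 and 8 in LV livers and 7, 7 and 6 in untreated ones (0.42, adjusted p = 0.175). The membrane linker Msn and the tight junction protein Cldn2 had log2 fold changes of 0.72 and 0.49 (adjusted p = 0.191 and 0.242). The related linkers Rdx and Ezr of the list differed in sign, with log2 fold changes of -0.31 and 0.81 (limma adjusted p = 0.281 and 0.248). Ezr values were at most 7.

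The genes outside the set whose log2 profile over the 6 livers was most like the mean profile of the 10 were Slc47a1 (Pearson r = 0.992), the translation factor Eef2 (0.989) and the deubiquitinase Usp10 (0.988), among 2744 genes whose mean reached 20. The 6 points share the same contrast and libraries, so this is a description. Eef2 had 618, 643 and 661 in LV livers and 726, 734 and 714 in untreated ones, and Usp10 had 23, 26 and 29 against 34, 40 and 34. Both were below all untreated values in each LV liver (limma adjusted p = 0.287 and 0.116).

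Markers of the liver's other cells were read beside these values. Bile duct cells also carry some of these transporters, and 5 of 13 listed cholangiocyte markers were measured, with sums of 95 to 127 in LV and 120 to 142 in untreated livers; the defining keratins Krt19 and Krt7 and Epcam were not among the genes listed. Kupffer cell markers (11 of 12 measured) summed to 136 to 319 in LV and 254 to 375 in untreated livers. Sinusoidal endothelial markers (12 of 12) summed to 122 to 224 and 232 to 260, and stellate cell markers (11 of 12) to 161 to 201 and 161 to 204. Median log2 fold changes were -0.38 for cholangiocyte, -0.62 for Kupffer, -0.39 for endothelial and 0.03 for stellate cell markers. That of the 10 transporter and Fxr genes was -0.53. In the same order, 3 of 5, 9 of 11, 10 of 12 and 5 of 11 markers were negative, against 58.1% of all tested genes. Of 12 blood leukocyte markers only Ptprc was measured, at 1 to 3. LV replicate 1, the lowest library for the set, was also the lowest for the Kupffer (136) and endothelial (122) sums. None of these markers was at 0 in all libraries, 0 of them passed in limma, and their part in the transporter values was not tested. Hepatocyte markers, of which 0 of 15 passed, summed to between 89519 and 104632 in LV and between 91824 and 124862 in untreated livers.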

How the data were processed

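Per the labels' protocols, TruSeq RNA libraries were made from whole-liver RNA, 6 samples in all. Per the submitters' processing notes the genome build was mm9. The aligner, annotation and counting were not given in the sources used here. Deposited values were treated as a score that the authors had scaled and rounded to whole numbers: among genes with a mean of 2 to 5, the ratio of variance to mean within a group averaged 0.255 in LV and 0.245 in untreated livers, below the 1 that read counts would give at the least. A count model was therefore not used, as the plan foresaw for such values. Depth is unknown, so counting intervals could not be given.

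Genes that reached 1 in 3 or more libraries (8386 of 8390) were fitted as log2(value + 1) with the group as the only term, in limma 3.58.1 (R 4.3.3, intensity trend in the variance), and the fit was tested on simulated data. A fold change on this scale understates that of low genes. The 3 ratios were tested by exact permutation. The 10 genes and the 16 gene lists were chosen with earlier results of these data known. Of 232 list entries 194 were found by symbol and 1 by a synonym (Adgre1, listed as Emr1). Named genes were the 10 members, up to 4 genes with the smallest p from each of 5 pathway lists, 20 fixed genes where present, and the 3 genes of most similar profile; some genes of this rule are not reported here. Alternatives comprised other pseudocounts, filters, scalings, a fit without the trend, a replicate block, single libraries left out, and LV replicate 3 and untreated replicate 2 left out together; the library set as a covariate was added after seeing the data.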

Additional observations from a re-analysis of the deposited data

How the results depend on the processing

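None of the 10 genes was called under any of the 17 alternatives, and 8 kept a negative fold change in all of them; the range of log2 fold change was -0.72 to -0.44 for Slc10a1, -1.13 to -0.63 for Abcg5 and -1.22 to -0.73 for Abcg8, and the smallest adjusted p was 0.0526, for Abcg8 with equal totals. Abcb11 turned to 0.01 with equal totals and 0.05 with median-of-ratios scaling and lay between -0.13 and 0.12 with single libraries left out. Nr0b2 turned to 0.02 with median-of-ratios scaling and 0.15 without LV replicate 3 and untreated replicate 2 together, and lay between -0.30 and 0.34 with single libraries left out. The ratio of Abcg5 to Abcg8 differed by -0.01 with a pseudocount of 5 and by -0.13 to 0.22 with single libraries left out, that of Abcc3 to Abcc2 by -0.16 to 0.03, and that of Abcb11 to Slc10a1 by 0.39 to 0.77. Over all genes, 315 were called higher and 73 lower; leaving out single libraries gave 119 to 313 higher and 10 to 116 lower, and omitting LV replicate 3 together with untreated replicate 2 gave 136 lower. The cause of these differences in the number of calls was not tested. The replicate block gave 145 higher and 11 lower. The replicate numbers share only a number: deviations of same-numbered livers correlated at 0.278, -0.470 and -0.337 over genes, and 1 of 6 livers correlated best with its own number. Median-of-ratios scaling moved the median of all genes from -0.07 to -0.02 and raised the higher calls to 408. Rounding and 3 livers a group limit what could be detected.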

Other observations

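Hepatocytes differ along the lobule, and genes of both zones were measured. The 10 pericentral genes, of which 9 had a negative log2 fold change (median -0.29), summed to 2533, 4205 and 5360 in LV replicates 1, 2 and 3 and to between 4521 and 6177 in untreated livers. The 10 periportal genes, of which 4 were negative (median 0.06), summed to between 4189 and 4519 in LV and between 3475 and 4571 in untreated livers. None of either list passed in limma or had an unadjusted p under 0.05. LV replicate 1 was thus the lowest library for the pericentral sum as well as for the transporter set. The male-biased list (8 of 10 measured, of which 7 were tested) summed to 2550 in LV replicate 3 and 2314 in untreated replicate 2 and to between 245 and 562 in the other libraries. The female-biased list (7 of 9) summed to 206 and 341 in these libraries and to between 572 and 1204 in the others. None of either list passed or had an unadjusted p under 0.05.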
